A study of Zea mays with 4 samples.

Results

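The sucrose cleavage and resynthesis genes of maize described here are ivr2, incw1, sus1, frk2 and sps1, chosen by name as 5 genes that cut sucrose, phosphorylate the fructose that is released, or rebuild sucrose. The choice was made with earlier results of these data known. Each was measured by 1 probe set, a group of short probes for 1 transcript, so that 5 of the 17621 probe sets without controls on the array, and 5 of 1108 genes named there, were members. Of those 17621 probe sets, 16168 carry no gene name in the annotation used, so further probe sets or relatives of these genes may lie among them. All 5 probe sets are of the plain type, named without the suffixes that mark probes shared between transcripts. RNA was taken from ear internodes (the piece of stem carrying the ear) of the inbred line F271, grown in the field with irrigation through a hot and dry summer and given no treatment. F271 is the parent with the unfavourable alleles in a cross with line F288, used to map loci that govern lignin and wall degradability, and no other line was measured in these arrays. Early silking, the later stage, and tassel emergence were each measured on 2 arrays, with 340 and 400 ng of RNA at early silking and 290 and 440 ng at tassel emergence. Plant age and the number of plants per sample are not given in the labels.

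Sucrose is the sugar that moves through the phloem of maize, and a growing stem must cut it before using it. Invertases hydrolyse it to glucose and fructose, in the vacuole or in the cell wall, while sucrose synthase cuts it in the cytosol to fructose and UDP-glucose, the substrate of cellulose synthesis. Fructokinases return fructose to the pool of hexose phosphates, from which sucrose phosphate synthase and sucrose phosphatase make sucrose again. In sugarcane, a related grass, vacuolar invertase activity is high in elongating internodes and declines as internodes mature and store sucrose.

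Values are log2 probe set summaries, so a difference of 1 is a factor of 2. A probe set was tested when it was above a log2 value of 4 on at least 2 of the 4 arrays, which held for 10782 probe sets and for all 5 genes. The difference between stages, early silking minus tassel emergence, was tested with limma, a linear model whose error borrows strength across probe sets, with Benjamini-Hochberg adjustment over all 10782. The threshold was an adjusted p of 0.05. No probe set passed it, which is 0% of those tested, and the smallest adjusted p was 0.0864. An unadjusted p under 0.05 was found for 2679 of them. The median difference over all tested probe sets was 0.10. The arrays of 1 stage correlated at r = 0.967 for early silking and r = 0.933 for tassel emergence over the tested probe sets. Only 2 arrays a stage limit the precision. The labels do not state whether the RNA of the 2 arrays was drawn from different plants, so the error behind each p-value may be technical alone.

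The arrays also differed in how far signal reached towards the 5' end of transcripts, a measure of RNA integrity and labelling. Over 5 maize control transcripts the mean log2 excess of 3' over 5' signal was 1.86 and 2.40 at early silking, against 4.63 and 2.91 at tassel emergence. This gap moved with stage, and tassel emergence replicate 1 stood apart in it. Between the tassel emergence replicates the gap differed by 1.73, while the values of the 5 genes differed by 0.12 in ivr2, 0.37 in incw1, -0.06 in sus1, 0.04 in frk2 and 0.38 in sps1 (replicate 1 minus replicate 2). Without tassel emergence replicate 1 the 5 differences between stages were -8.16, -1.09, -0.58, -1.35 and 1.59 for ivr2, incw1, sus1, frk2 and sps1 in that order. With the mean gap as a covariate, which leaves 1 residual degree of freedom, they were -8.73, -0.74, -0.62, -1.33 and 1.71 in the same order. As the gap moved with stage, gap and stage cannot be fully told apart on these arrays. The part of the gap in the 5 differences was not tested.

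The labelled tissue was checked by markers. All 5 measured markers of the stem's secondary wall were present at both stages, at log2 values of 9.82 to 13.34 at early silking and 12.36 to 14.08 at tassel emergence. Their median difference was -2.27, with bk2, brittle stalk2, the lowest at -2.65 and BM1, a cinnamyl alcohol dehydrogenase of lignin synthesis, the highest at -0.70. Kernel storage markers were below a log2 value of 4 on every array in 6 of 7 genes. The exception was gz27, whose highest-mean probe set had 6.86 and 5.99 at early silking and 6.85 and 6.97 at tassel emergence. Its other probe sets lay below 4 on every array and were not tested, so the probe sets of gz27 disagree on its presence. All 5 pollen markers were below 4 on every array, their highest value being 2.42. All 6 leaf photosynthesis markers were measured, with a median difference of 0.61. ME1, an NADP-malic enzyme, was the highest at 2.58, with values of 6.37 and 4.85 at early silking against 2.86 and 3.21 at tassel emergence. Both tassel emergence values of ME1 were under 4, and with values under 4 set to 4 its difference was 1.61. The lowest was rbcS, a Rubisco small subunit gene, at 0.35. The summed linear signal of the 6 markers was 44150 and 37450 at early silking and 25110 and 31040 at tassel emergence. The part of green tissue in the differences described here was not tested.

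The single contrast of these arrays asked how the ear internode differs between the stages. Of the 5 genes, the 4 that act in cutting sucrose or in using the fructose were lower at early silking and the 1 that acts in resynthesis was higher. None of the 5 passed the threshold over all probe sets. Adjusted over the 800 tested genes that carry a name, ivr2 and frk2 were among the 28 that passed, which is 3.5% of them. All 5 had an unadjusted p under 0.05, which was the case for 24.8% of tested probe sets. In all 5 the stages did not overlap, as in 59.7% of tested probe sets, with 24.9% lower and 34.9% higher at early silking. As the 5 genes were chosen with earlier results of these data known, their counts and directions are a description and not a test of the pathway. Of the 8 other tested genes of the sugar pathway list described below, 1 had an unadjusted p under 0.05 (limma) and 6 overlapped between stages. In internode RNA, fewer cells of a type and less RNA per cell cannot be told apart.

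**Figure D1:**
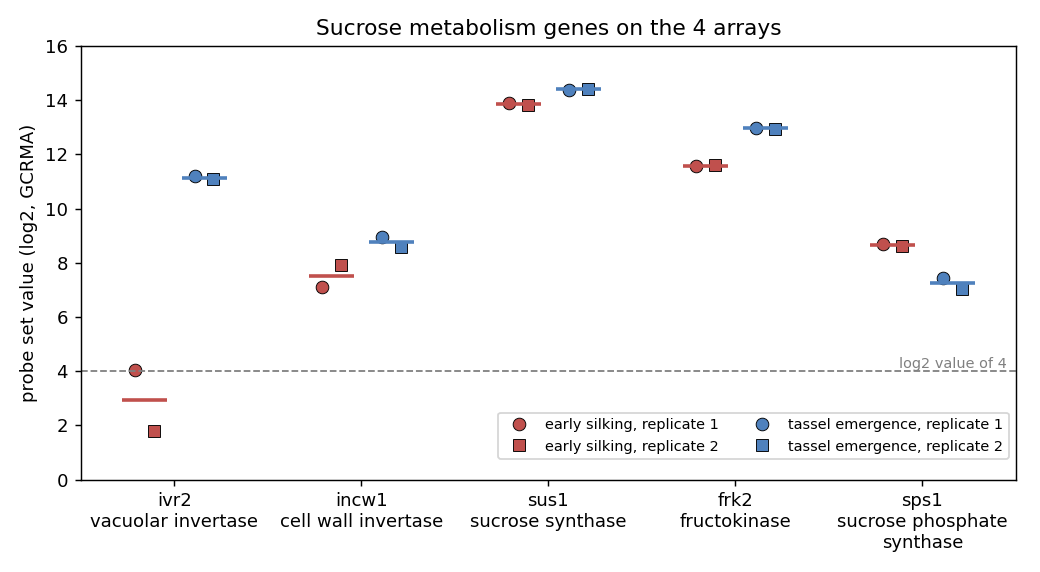
Log2 probe set values (y axis) of the 5 genes (x axis), with early silking in red left of tassel emergence in blue. Circles are replicate 1, squares are replicate 2 and bars are the mean of the 2 arrays. The ivr2 values at early silking lie at 4.06 and 1.78, around the dashed line at 4, against 11.19 and 11.07 at tassel emergence, while sps1 alone is higher at early silking.

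ivr2 (gene ID 542324), a soluble acid invertase of the vacuole, had log2 values of 4.06 and 1.78 at early silking, against 11.19 and 11.07 at tassel emergence. Both early silking arrays were far below both tassel emergence arrays, with 7.02 between the nearest values of the stages. The means were 2.92 ± 1.61 at early silking and 11.13 ± 0.08 at tassel emergence (SD, n = 2 each). The difference was -8.22 with an SE of 0.83 (limma, adjusted p = 0.0864), a 297-fold lower mean signal. The 2 early silking values lie near the bottom of the scale, where differences are poorly measured, and differed between themselves by 2.28. With values under 4 set to 4 the difference was -7.11, or 138-fold, and the adjusted p was 0.0252, which made ivr2 the 1 probe set past the threshold on that scale. That setting takes the early silking values to 4.06 and 4, which removes nearly all of the spread between them from the error, so the smaller p follows in part from its construction. No other tested probe set had as large a difference in either direction, and the largest difference upward was 5.16.

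incw1 (gene ID 542314), an invertase bound to the cell wall, had values of 7.10 and 7.91 at early silking, against 8.96 and 8.59 at tassel emergence. The early silking arrays were the lower ones, with 0.68 between the nearest values of the stages and 0.81 between the early silking replicates. The means were 7.50 ± 0.57 at early silking and 8.78 ± 0.26 at tassel emergence (SD, n = 2 each), a difference of -1.27 ± 0.36 (SE, limma, adjusted p = 0.154). Without early silking replicate 1 the difference was -0.87, and without early silking replicate 2 it was -1.68. With the 3' minus 5' gap as a covariate it was -0.74 (limma, adjusted p = 0.42).

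The other cell wall invertases named on the array were at the bottom of the scale. INCW2, also named mn1, the endosperm invertase of the miniature1 locus, had values of 1.93 and 1.97 at early silking and 1.94 and 1.94 at tassel emergence. incw3, a further cell wall invertase, had 2.02 and 2.05 at early silking and 2.03 and 2.03 at tassel emergence. Both lay below a log2 value of 4 on every array and were not tested, so that incw1 was the 1 cell wall invertase of the 3 named on the array with a value above 4.

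sus1 (gene ID 542247), a sucrose synthase, had values of 13.89 and 13.82 at early silking, against 14.37 and 14.43 at tassel emergence. The early silking arrays were the lower ones, with 0.48 between the nearest values of the stages. The means were 13.85 ± 0.05 at early silking and 14.40 ± 0.04 at tassel emergence (SD, n = 2 each), a difference of -0.55 ± 0.17 (SE, limma, adjusted p = 0.176). This corresponds to a 1.46-fold lower signal, and 40.6% of tested probe sets differed at least as much in either direction.

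The other sucrose synthases named on the array showed no such separation. sus2 had 8.39 and 8.79 at early silking and 8.90 and 8.50 at tassel emergence, with overlapping stages and a difference of -0.11 ± 0.27 (SE, limma, adjusted p = 0.833). sh1, the sucrose synthase of the shrunken1 locus known for its role in the kernel, had 11.72 and 12.46 at early silking and 12.22 and 11.95 at tassel emergence, again with overlap and a difference of 0.005 ± 0.33 (SE, limma, adjusted p = 0.994). With that SE, a difference as small as the one of sus1 was not detectable for sh1. Other sh1 probe sets lay below 4 on every array, from 1.89 to 2.02, and were not tested.

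frk2 (gene ID 542108), a fructokinase, had values of 11.56 and 11.61 at early silking, against 12.98 and 12.94 at tassel emergence. The early silking arrays were the lower ones, the replicates lay close together and the nearest values of the stages were 1.33 apart. The means were 11.59 ± 0.04 at early silking and 12.96 ± 0.03 at tassel emergence (SD, n = 2 each), a difference of -1.37 ± 0.17 (SE, limma, adjusted p = 0.0864), or a 2.59-fold lower signal. Leaving out any 1 array gave differences of -1.40 to -1.35. The second fructokinase named on the array, frk1, had 7.94 and 8.33 at early silking and 8.26 and 8.36 at tassel emergence, with overlapping stages and a difference of -0.18 ± 0.22 (SE, limma, adjusted p = 0.652).

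sps1 (gene ID 542711), a sucrose phosphate synthase, the enzyme that commits hexose phosphates to sucrose, had values of 8.68 and 8.60 at early silking, against 7.43 and 7.04 at tassel emergence. Both early silking arrays were the higher ones, by 1.17 at the nearest values. The means were 8.64 ± 0.05 at early silking and 7.24 ± 0.27 at tassel emergence (SD, n = 2 each), a difference of 1.40 ± 0.22 (SE, limma, adjusted p = 0.0945), or a 2.64-fold higher signal. Of all tested probe sets, 3.02% were higher at early silking by at least as much.

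Of the named phosphatases that act after sucrose phosphate synthase, spp1 had overlapping stages and SPP2 was not tested. spp1, a sucrose phosphatase, had 10.32 and 9.96 at early silking and 9.66 and 10.03 at tassel emergence, with overlap and a difference of 0.30 ± 0.25 (SE, limma, adjusted p = 0.498). SPP2, a second sucrose phosphatase, was above a log2 value of 4 on 1 array alone, with 2.15 and 2.14 at early silking and 4.02 and 2.06 at tassel emergence, and was not tested.

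**Figure D2:**
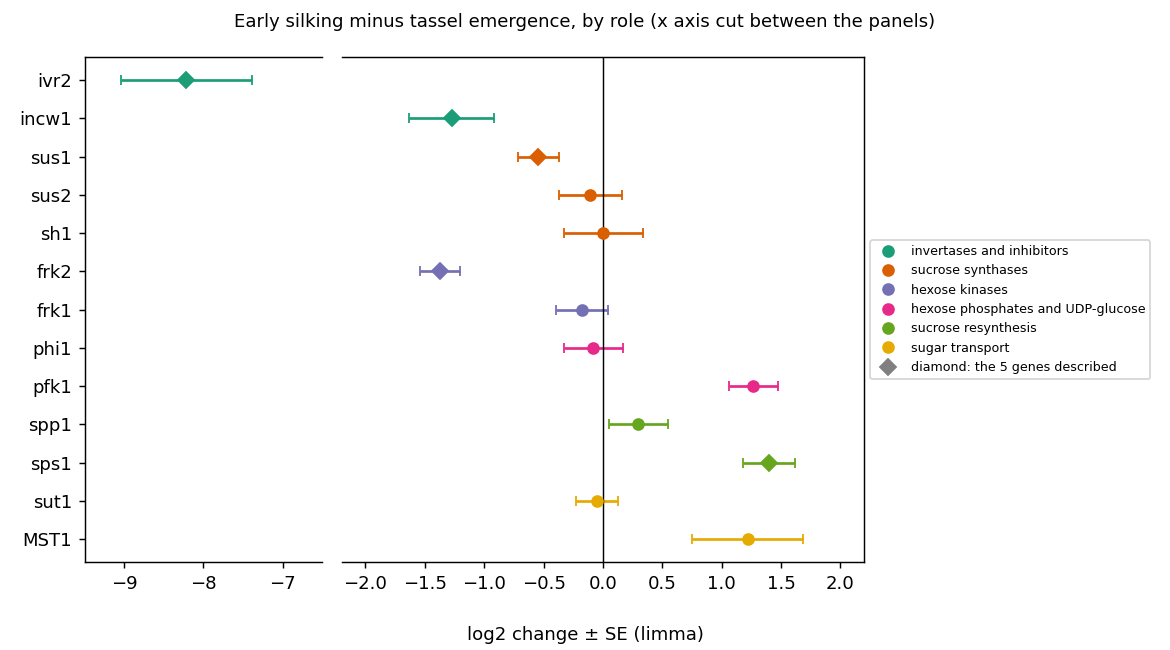
Log2 difference, early silking minus tassel emergence, with its SE from limma (x axis, cut between the panels) for the 13 tested genes of the sucrose pathway (y axis), coloured by role. Diamonds are the 5 genes described and circles the other genes. ivr2 stands alone at -8.22 in the left panel, and sus2, sh1, frk1, phi1 and sut1 lie within 0.18 of 0.

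The rest of the pathway was read from a list of sugar genes chosen by name and role. It had 11 further named genes on the array, of which 8 were tested and none passed the threshold over all probe sets. Of these 8, 4 were higher and 4 lower, beside 6193 higher and 4589 lower of the 10782 tested probe sets. Their median difference was -0.02 against 0.10 over all tested probe sets. The stages overlapped in 6 of the 8 and did not overlap in 2, beside 59.7% of tested probe sets without overlap. At an unadjusted p under 0.05 there was 1 higher and none lower, against 12.7% of tested probe sets higher and 12.1% lower. The 1 higher gene was pfk1, named by its symbol alone for phosphofructokinase, with 10.11 and 10.03 at early silking, against 8.64 and 8.96 at tassel emergence, and a difference of 1.27 ± 0.21 (SE, limma, adjusted p = 0.0968). phi1, a phosphohexose isomerase that interconverts glucose and fructose phosphates, had 10.36 and 10.65 at early silking and 10.37 and 10.80 at tassel emergence, a difference of -0.08.

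Of the 2 measured transport genes, sut1 had overlapping stages and MST1 did not, and neither passed the threshold, as no tested probe set did. sut1, a sucrose transporter that loads sucrose across the plasma membrane, had 12.66 and 12.59 at early silking and 12.71 and 12.64 at tassel emergence. Its stages overlapped and its difference was -0.05 with an SE of 0.17 (limma, adjusted p = 0.88). MST1, a monosaccharide transporter, had 5.74 and 6.79 at early silking, against 4.72 and 5.36 at tassel emergence, a difference of 1.22 ± 0.47 (SE, limma, adjusted p = 0.217). The early silking arrays were the higher ones for MST1, but the replicates at early silking differed by 1.05. A second MST1 probe set, of the plain type, was below 4 on every array, at 2.47 and 2.28 at early silking and 2.26 and 2.26 at tassel emergence, and was not tested. The probe set of sut1 and the tested one of MST1 are of a type shared by several transcripts, so these values may not belong to 1 gene.

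The 5 genes were also compared with each other within the same arrays. For each of the 10 pairs the difference of the 2 log2 values was taken on every array and compared between stages, which compares differences and not levels. In 9 of 10 pairs the stages did not overlap, as in 58.3% of all pairs of tested probe sets, and the 10 pairs share 5 genes whose own stages did not overlap. ivr2 minus sps1 was -4.62 and -6.82 on the early silking arrays and 3.76 and 4.03 on the tassel emergence arrays, so the difference of ivr2 was 9.62 below that of sps1. As 1 of the early silking values of ivr2 was under 4, the size of this gap is uncertain, and with values under 4 set to 4 it was -8.51. frk2 minus sps1 was 2.89 and 3.01 at early silking, against 5.55 and 5.90 at tassel emergence, a difference of -2.77. sus1 minus sps1 was 5.21 and 5.21 at early silking, against 6.94 and 7.38 at tassel emergence, a difference of -1.95. sus1 minus frk2 differed by 0.83, with frk2 the lower at early silking relative to sus1. The pair that overlapped was incw1 minus frk2, whose difference was 0.10, with -4.47 and -3.70 at early silking and -4.02 and -4.35 at tassel emergence. By an exact two-sided permutation test over the 4 arrays no pair can give a p under 0.333, which was the p of all 9 pairs (0.37 adjusted over the 10 pairs), so these differences cannot pass a threshold of 0.05 with 2 arrays a stage.

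**Figure D3:**
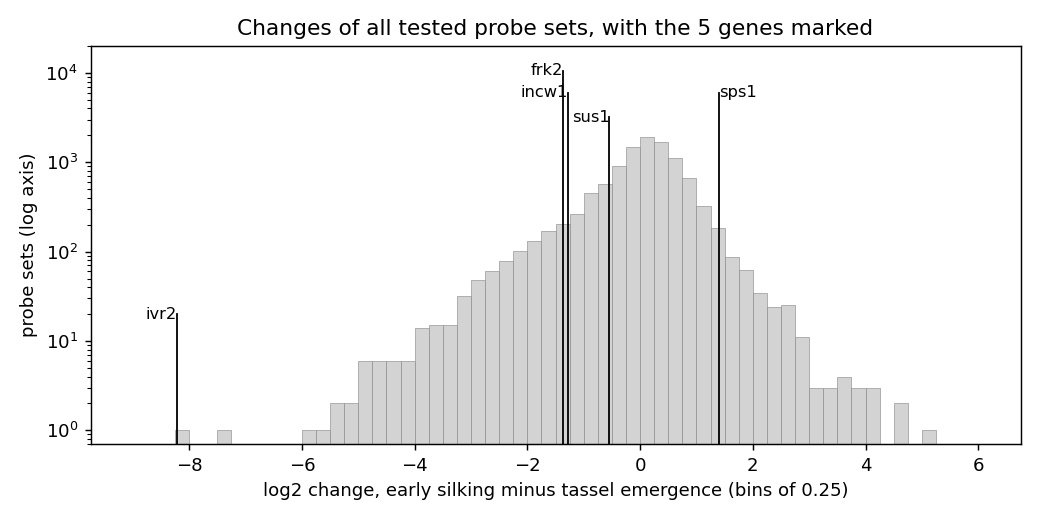
Number of tested probe sets (y axis, log scale) by log2 difference, early silking minus tassel emergence (x axis, bins of 0.25), with lines at the 5 genes. ivr2 is the lowest of the 10782 probe sets at -8.22, whereas sus1 at -0.55, incw1 at -1.27, frk2 at -1.37 and sps1 at 1.40 lie in the flanks of the distribution.

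Against the whole array, 5% of tested probe sets were at or below -1.73 and 5% at or above 1.17. ivr2 was beyond the first of these values and sps1 beyond the second, while frk2, incw1 and sus1 lay between them. A larger downward difference than that of frk2 was found for 801 tested probe sets, than that of incw1 for 891 and than that of sus1 for 2099. A larger upward difference than that of sps1 was found for 325. Taken relative to the median of all tested probe sets, the 5 differences were -8.32, -1.38, -0.65, -1.48 and 1.30 for ivr2, incw1, sus1, frk2 and sps1 in that order.

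Compartment and storage genes were described beside these values from lists chosen by name. Of all 10782 tested probe sets, 6193 were higher and 4589 lower at early silking, with a median of 0.10. The tonoplast, the membrane around the vacuole in which ivr2 acts, had 11 genes of water channels and proton pumps on the array, of which 6 were tested, 4 lower and 2 higher, with none past the threshold and a median of -0.52. The lowest was TIP1-1, a water channel of the tonoplast, with 9.17 and 8.82 at early silking, against 10.99 and 10.99 at tassel emergence, a difference of -1.99 (limma, adjusted p = 0.0864). The highest was TIP4-1, a further channel, at 0.89, with 5.73 and 8.20 at early silking and 8.27 and 3.88 at tassel emergence, values that overlap widely. Without early silking replicate 1 the tonoplast median was -0.92 and without early silking replicate 2 it was -0.23. Starch, the other storage form of the same hexose phosphates, had 9 tested genes of 14, with 7 higher and 2 lower, none past the threshold and a median of 0.52. In that list sbe1, a starch branching enzyme, was the highest at 1.35 and Amy2, a beta-amylase, the lowest at -0.22 with overlapping stages. The starch median was 0.70 without tassel emergence replicate 1 and 0.32 without tassel emergence replicate 2.

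The named genes with the most similar course over the 4 arrays were found by the root mean square difference of log2 values, each gene centred on its own mean, among 799 other tested genes. With 4 arrays this is a description. Closest to frk2 were CesA-9 and CesA-4, both cellulose synthases, at 0.08 and 0.10, with differences between stages of -1.52 and -1.45. The CesA-4 probe set carries a suffix that marks probes shared between transcripts, so its values may not belong to 1 gene. Closest to incw1 were Bk2L3, a gene like brittle stalk2, at 0.09, and LOC100101510, at 0.20. Closest to sps1 were sbe1 at 0.07 and zap1, a MADS box gene, at 0.11, with differences of 1.35 and 1.19. Closest to sus1 were gsy199(ptk) and sdg110, both at 0.05. Closest to ivr2 were gar2 at 0.65 and hsp18f, a small heat shock protein gene, at 2.01, where the measure grows with the size of the step between stages and the early silking values lie near the bottom of the scale. gar2 had 3.10 and 2.19 at early silking, against 10.38 and 9.73 at tassel emergence, with both early silking arrays below a log2 value of 4, and a difference of -7.41.

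**Figure D4:**
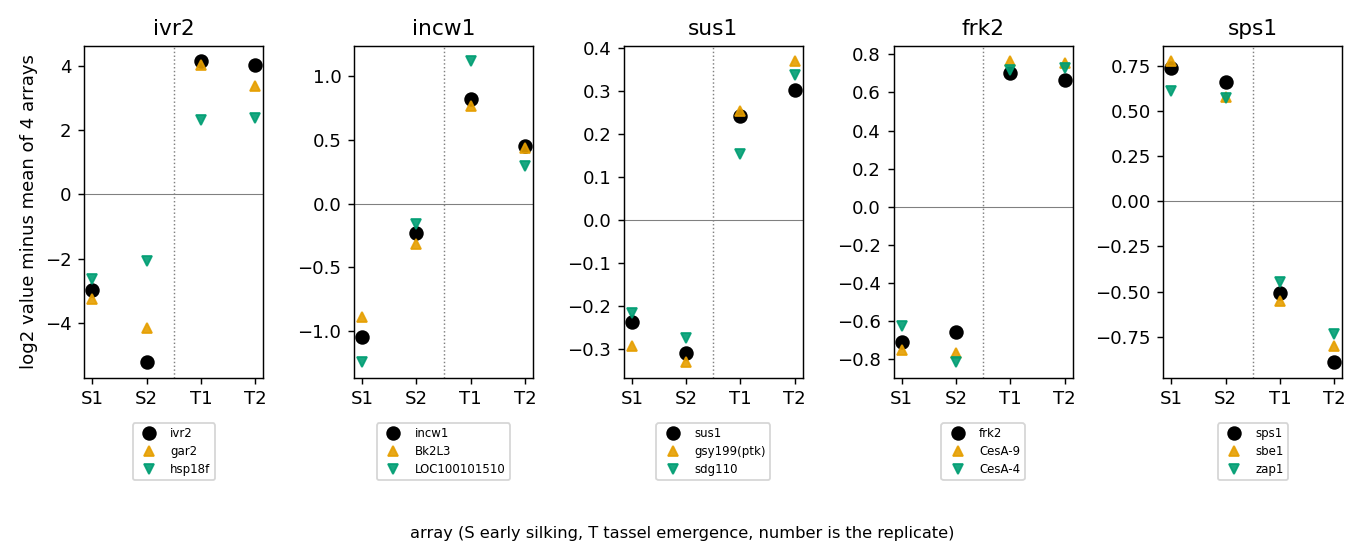
Log2 value minus the gene's mean over the 4 arrays (y axis, with its own scale in each panel) on each array (x axis, S1 and S2 for early silking, T1 and T2 for tassel emergence). Black circles are the named gene and triangles the 2 genes nearest to it. The frk2 and sus1 panels show replicates close together relative to the step between stages. The tassel emergence values of sps1 differ by 0.38, beside a step of 1.40. The early silking values of ivr2 differ by 2.28, beside a step of -8.22, and those of incw1 by 0.81, beside a step of -1.27.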

How the data were processed

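Ear internode RNA of maize line F271 was measured on 4 Affymetrix arrays. The deposited log2 values are probe set summaries that the authors made with GCRMA, per the submitters' processing notes. GCRMA models background from probe composition and scales arrays to each other, which can stretch differences near the bottom of the scale. Its version is not given in the sources used here. The scale follows from the range, 1.36 to 15.24. Of 17734 probe sets, 113 controls were left out. Names came from the platform annotation and from RefSeq symbols and synonyms matched by gene identifier (1060 of 1108 genes). Stage differences came from lmFit and eBayes of limma 3.58.1 (R 4.3.3), 2-sided and without covariates, after keeping probe sets above 4 on at least 2 arrays, and the step was tested on simulated data. The highest-mean probe set stood for a gene. The haemoglobin gene that shares the symbol GLB1 and the gene PDK1 with synonym pdlk1 were taken out of the kernel and leaf lists. The 5 genes, the lists and the tests were chosen with earlier results of these data known. Lists could hold only genes named in the annotation. By rule, the text names the 5 genes, every gene of the sugar pathway list found on the array, the highest and lowest of each other list with over 1 tested gene, and the 2 nearest profiles. The replicate numbers 1 and 2 are not stated to pair samples. Alternatives were a replicate block, other filters, quantile and median scaling, a floor, other variance models, named genes alone, the 3' minus 5' gap as a covariate and leaving out arrays.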

Additional observations from a re-analysis of the deposited data

How the results depend on the processing

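In every alternative that was run, ivr2, incw1, sus1 and frk2 kept a negative difference and sps1 a positive one. The count of probe sets past the threshold was 0, with 1 after values under 4 were set to 4, 28 when adjusted over the 800 named genes, and 357 with a crossed replicate block. With the replicate number as a block (replicate block) it was 0, and the adjusted p was 0.233 for ivr2, 0.331 for incw1, 0.436 for sus1, 0.252 for frk2 and 0.252 for sps1, so the block changed no call. Same-numbered deviations correlated at -0.42 across probe sets, and the crossed pairs were added after seeing the data. With a correlation of that sign, crossed pairs take shared deviations out of the error. The count of 357 and the adjusted p-values of that setting therefore follow in part from the choice of pairs. ivr2 passed the threshold with values under 4 set to 4 (difference -7.11), a setting that itself narrows the spread of its early silking values, over named genes (-8.22, adjusted p = 0.0465) and with crossed pairs (-8.22, adjusted p = 0.0463), and frk2 over named genes (-1.37, adjusted p = 0.0465). Leaving out 1 array gave -9.35 to -7.08 for ivr2, -1.68 to -0.87 for incw1, -0.58 to -0.51 for sus1, -1.40 to -1.35 for frk2 and 1.21 to 1.59 for sps1, with no probe set past the threshold. The median of the other sugar pathway genes was -0.12 to 0.11 without 1 array, with 0.11 without early silking replicate 1 and 0.10 without tassel emergence replicate 1. Pairs of genes whose stages did not overlap numbered 8 to 10. ivr2 gave no value where all 4 arrays had to be above 4. With 2 arrays a stage, differences near those of sus1 are at the limit of what these arrays resolve, and values under 4 have no reliable order. The causes of these shifts were not tested.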
